A study of Mus musculus with 8 samples.

Results

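The genes of MHC class II presentation were followed here in peritoneal macrophages (pMacs) of WT and CD1d-deficient (CD1d-KO) mice. The set held 10 of the 48795 genes counted in the libraries. It was chosen by function: the class II chains *H2-Aa*, *H2-Ab1* and *H2-Eb1*, the invariant chain *Cd74*, the peptide editor subunits *H2-DMa*, *H2-DMb1* and *H2-DMb2*, the editor brake subunits *H2-Oa* and *H2-Ob*, and the transactivator *Ciita*. All 10 were found by Ensembl identifier, and 10 of 10 passed the filter on low counts that left 13040 genes for testing.

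Polyadenylated RNA of unstimulated pMacs from peritoneal lavage was sequenced with 1 library per mouse, of 4 mice per genotype, and the comparison asks which genes differ without CD1d, the molecule that presents lipids to NKT cells. The libraries are numbered 1, 2, 3 and 5 in each genotype, which gave 4 pairs. The labels give no strain. The study lists C57BL/6 as its WT and speaks of littermates as controls. For CD1d-KO, the study lists a CD1d flox x PGK-Cre line beside B6.129S6-Del(3Cd1d2-Cd1d1)1Sbp/J. The sources used here do not state which of them gave these libraries. In both lines, the deletion is present in every cell of the mouse and not in macrophages alone. No library label gives an age. The study speaks of purified pMacs. It names enrichment with F4/80 beads, which would deplete B cells, for stimulation experiments and for lipid measurements of unstimulated pMacs. Whether the beads were used for these libraries is not stated.

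Class II molecules carry peptides from endocytosed proteins to the cell surface, where CD4+ T cells read them. An alpha and a beta chain pair in the endoplasmic reticulum around the invariant chain, which blocks the groove and steers the complex to endosomes. There proteases trim the invariant chain to a short plug, H2-DM exchanges the plug for peptide, and H2-O, formed by *H2-Oa* and *H2-Ob*, restrains H2-DM. Transcription of the class II chains, the invariant chain and H2-DM is coordinated by CIITA, the product of *Ciita*. CIITA binds no DNA by itself but docks on the RFX, CREB and NF-Y factors at the X and Y boxes of class II promoters. B cells and dendritic cells hold class II all the time, whereas resident large pMacs hold little.

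Between 13698864 and 19059432 expected counts fell on genes in each library. Values called normalized counts below are expected counts scaled to a shared depth, and log2 fold changes above 0 mean that CD1d-KO exceeded WT. As a check of the labels, the deleted gene *Cd1d1* had 60.1 normalized counts in the library labelled CD1d-KO replicate 1 and 0 to 1.13 in CD1d-KO replicates 2, 3 and 5. WT replicates 1, 2, 3 and 5 had 67.6, 173.9, 95.3 and 139.8. The library labelled CD1d-KO replicate 1 thus lay just below WT replicate 1. It goes against its label, so genotype differences are also given without pair 1. Marker genes of large pMacs summed to between 513690 and 768001 normalized counts in the 8 libraries, whereas markers of B cells summed to between 2195 and 15706. Of the 14 B cell markers, 14 were above the filter, so macrophage markers were high and B cell transcripts were present in every library. In bulk RNA, fewer cells of a type and less RNA per cell cannot be told apart.

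Class II promoters share an X box and a Y box, and the promoter windows of the members are shown first because these boxes are where CIITA acts. The RefSeq windows used, on build GRCm38.p6, reach from 250 bases before to 50 bases after a gene's start, and 7 of the 10 members matched an entry (*H2-Aa*, *H2-Eb1*, *H2-DMa*, *H2-DMb1*, *H2-DMb2*, *H2-Oa* and *H2-Ob*). The core of the Y box, ATTGG, was searched on both strands and stood in the windows of 7 of 7 genes, beside 37.4% of the 32851 windows of all genes. The letters GNAAC (N stands for any base), a part of the X box, followed by ATTGG with 15 to 45 bases between them on the strand of the gene, stood in 5 of 7, beside 2.45% of all windows. On either strand the share of all windows was 4.93%, with the same 5 genes. These genes were *H2-Aa*, *H2-Eb1*, *H2-Oa*, *H2-Ob* and *H2-DMb1*. The sequences below run 5′ to 3′ on the gene's strand and end at ATTGG, with the GNAAC motif and ATTGG in capitals. They show how alike the spacing was in genes from both ends of the class II region, with *H2-DMb2* as a member that has ATTGG without the GNAAC motif at that distance.
H2-Aa: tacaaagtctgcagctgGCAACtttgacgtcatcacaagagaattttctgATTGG
H2-Eb1: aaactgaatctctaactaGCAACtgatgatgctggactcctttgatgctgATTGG
H2-Ob: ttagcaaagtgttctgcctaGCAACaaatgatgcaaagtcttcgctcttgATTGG
H2-Oa: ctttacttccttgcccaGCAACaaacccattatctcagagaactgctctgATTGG
H2-DMb2: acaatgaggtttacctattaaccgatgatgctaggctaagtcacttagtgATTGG

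The stretch of *H2-Aa* lies at chr17:34287867-34287921 on the minus strand, with 28 bases between the capitals. Those of *H2-Eb1* (chr17:34305758-34305812, 27 bases between), *H2-Ob* (chr17:34238798-34238852, 25 bases), *H2-Oa* (chr17:34092286-34092340, 28 bases) and *H2-DMb2* (chr17:34145109-34145163) lie on the plus strand. In *H2-DMb1*, 28 bases separated GTAAC from ATTGG, and this stretch lies in an annotated exon and is not printed. *H2-DMa* held ATTGG in 1 of its windows, without the GNAAC motif at that distance. A match of letters is no proof of a bound site, and its absence says only that these letters are not in the window.

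Levels of different genes can be set side by side only per length, as TPM, the share of transcripts that a gene accounts for after division by its length. By the median of the 8 mice, *Cd74* stood first at 1114 TPM, followed by the chains *H2-Aa* (446 TPM), *H2-Ab1* (390 TPM) and *H2-Eb1* (305 TPM). A wide gap separated them from *H2-DMb2* (23.5 TPM), *H2-DMa* (20.5 TPM), *H2-Ob* (12.8 TPM), *H2-DMb1* (11.3 TPM), *Ciita* (5.72 TPM) and *H2-Oa* (2.67 TPM). *Cd74* exceeded *H2-Aa* in 8 of 8 libraries, *H2-Ab1* exceeded *H2-Eb1* in 8 of 8, and *H2-Eb1* exceeded *H2-DMb2* in 8 of 8. Neighbours that changed places were *H2-Aa* over *H2-Ab1* (6 of 8 libraries), *H2-DMb2* over *H2-DMa* (3 of 8), *H2-DMa* over *H2-Ob* (6 of 8) and *H2-Ob* over *H2-DMb1* (4 of 8), so the order within those pairs did not exceed the spread between mice. Among all genes of a library, *Cd74* ranked between 43 and 272 by TPM, and *Ciita* between 6855 and 11652.

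**Figure D1:**
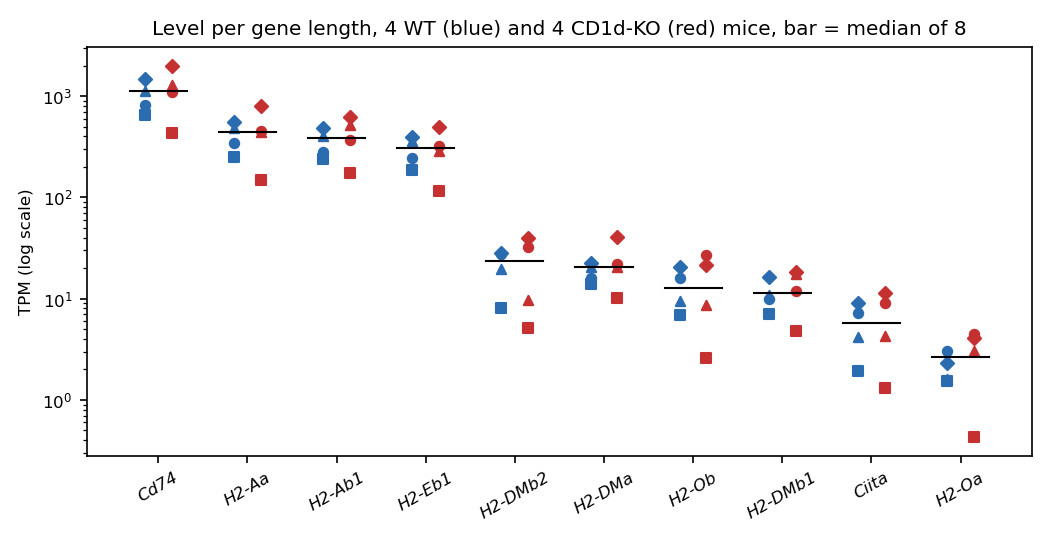
TPM of the 10 class II presentation genes on a log scale, with 1 point per mouse (blue WT, red CD1d-KO; circle, square, triangle and diamond for replicates 1, 2, 3 and 5) and a bar at the median of the 8 mice. *Cd74* and the 3 chains lie above 100 TPM in 8 of 8 mice, the other 6 genes below 50 TPM, and the square of CD1d-KO replicate 2 is the lowest of each gene.

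The transcripts of the abundant members kept a narrow ratio to each other, although their levels did not. The TPM of *Cd74* over the summed TPM of the 3 chains ranged from 0.906 to 1.05 in the 8 libraries (0.958 ± 0.0496 in WT and 1.01 ± 0.0436 in CD1d-KO, SD, n = 4 each). The ratio of *H2-Aa* to *H2-Ab1*, alpha and beta chain of the same heterodimer, lay between 1.04 and 1.27 in 6 libraries. It was 0.851 in CD1d-KO replicate 2 and 0.857 in CD1d-KO replicate 3, the only libraries with less *H2-Aa* than *H2-Ab1* per length. These libraries also had the lowest ratios of *H2-Eb1* to *H2-Ab1* (0.656 and 0.564, beside 0.775 to 0.876 in the other 6). The ratio of the beta subunits of the editor, *H2-DMb2* over *H2-DMb1*, was far looser and ran from 0.563 in CD1d-KO replicate 3 to 2.74 in WT replicate 1. Both are near-identical genes: 15.8% of the 75-base stretches of *H2-DMb1* transcripts also occur in *H2-DMb2*, and these were the only members with fractional expected counts in 8 of 8 libraries, so their split is uncertain.

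The chains varied between mice of the same genotype, more widely in CD1d-KO than in WT. *H2-Aa* (ENSMUSG00000036594, chr17:34282744-34287823), the I-A alpha chain, had 3003, 2748, 4973 and 5452 normalized counts in WT replicates 1, 2, 3 and 5. In CD1d-KO replicates 1, 2, 3 and 5 it had 4026, 1590.0, 4953 and 7530.2. The genotypes overlapped, with both the lowest and the highest mouse among the CD1d-KO. The log2 fold change was 0.03 (standard error 0.19, 95% confidence interval -0.42 to 0.48, adjusted p = 0.967 by Benjamini-Hochberg in the edgeR quasi-likelihood test).

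*H2-Ab1* (ENSMUSG00000073421, chr17:34257689-34269419), the I-A beta chain, had 2651, 2831, 4754 and 5368 normalized counts in WT and 3594, 2058, 6311 and 6458 in CD1d-KO replicates 1, 2, 3 and 5. *H2-Eb1* (ENSMUSG00000060586, chr17:34305867-34316674), the I-E beta chain, had 2296, 2164, 4095 and 4366 in WT and 3084, 1327, 3538 and 5096 in CD1d-KO. In both genes replicates 3 and 5 were the high pairs and replicate 2 of CD1d-KO the lowest mouse. The log2 fold change of *H2-Ab1* was 0.17 (95% confidence interval -0.17 to 0.51, adjusted p = 0.708 from edgeR) and that of *H2-Eb1* -0.06 (-0.46 to 0.33, adjusted p = 0.929 from edgeR). The gene of its partner, the I-E alpha chain, is inactive in C57BL/6 mice. It is annotated as the pseudogene *H2-Ea-ps*, had at most 4.18 normalized counts in any library and was not tested.

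*Cd74* (ENSMUSG00000024610, chr18:60803848-60812652) encodes the invariant chain. Its normalized counts were 8101, 8157.5, 13773 and 17079 in WT and 11256, 5271, 16908 and 21786 in CD1d-KO replicates 1, 2, 3 and 5. Its lowest and highest libraries were those of *H2-Aa*, and the genotypes overlapped. Its log2 fold change was 0.13 (95% confidence interval -0.28 to 0.53, adjusted p = 0.823 from edgeR).

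*Ciita* (ENSMUSG00000022504, chr16:10480059-10528418), the transactivator, spread more widely than the chains and *Cd74* (7.69-fold beside at most 4.74-fold from the lowest to the highest mouse). It had 318, 106.5, 224 and 464 normalized counts in WT and 410, 71.5, 243 and 549 in CD1d-KO replicates 1, 2, 3 and 5. The genotypes overlapped, and its log2 fold change was 0.11 (95% confidence interval -0.22 to 0.44, adjusted p = 0.816 from edgeR). *Ciita* overlaps *Dexi* on the opposite strand over 25888 bases, which also held 0.765% of the 75-base stretches of *Ciita*.

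The editor H2-DM has 1 alpha and 2 beta genes. *H2-DMa* (ENSMUSG00000037649, chr17:34119541-34139101) had 186, 191, 247 and 295 normalized counts in WT and 253, 127, 331 and 440.3 in CD1d-KO replicates 1, 2, 3 and 5. *H2-DMb1* (ENSMUSG00000079547, chr17:34153072-34160230) had 107, 95.3, 148 and 192.5 in WT and 137, 66.8, 255 and 225 in CD1d-KO. In each of these, CD1d-KO was higher than WT in 3 of 4 pairs and lower in pair 2. Their log2 fold changes were 0.25 (95% confidence interval -0.17 to 0.67, adjusted p = 0.633 from edgeR) and 0.26 (-0.18 to 0.70, adjusted p = 0.646 from edgeR), the lowest adjusted p of the set. *H2-DMa* shared 7.46% of its 75-base stretches with the overlapping gene *Brd2* on the opposite strand, whose mean was 6079 normalized counts. The strand setting of the counting is not given in the sources used here. The expected count of *H2-DMa* was fractional in 0 libraries, and whether reads of *Brd2* entered it was not tested.

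*H2-DMb2* (ENSMUSG00000037548, chr17:34143307-34151555) did not follow *H2-DMb1*. It had 299, 105, 259 and 359 normalized counts in WT and 348, 69.3, 138 and 464 in CD1d-KO replicates 1, 2, 3 and 5. CD1d-KO replicate 3, the highest mouse for *H2-DMb1*, was the third lowest for *H2-DMb2*. The log2 fold change of *H2-DMb2* was -0.16 (95% confidence interval -0.65 to 0.34, adjusted p = 0.822 from edgeR).

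The brake subunits H2-O are encoded by *H2-Oa*, the least abundant and most variable member, and *H2-Ob*. *H2-Ob* (ENSMUSG00000041538, chr17:34238903-34254414), the beta subunit, had 259, 124, 186 and 385 normalized counts in WT and 378, 54.4, 200.3 and 340.0 in CD1d-KO replicates 1, 2, 3 and 5. *H2-Oa* (ENSMUSG00000024334, chr17:34092340-34095234), the alpha subunit, had 27.5, 18.1, 16.7 and 23.0 in WT and 39.8, 4.54, 34.9 and 39.2 in CD1d-KO. For *H2-Oa*, CD1d-KO replicates 1, 3 and 5 lay above the 4 WT mice and CD1d-KO replicate 2 below them. The log2 fold change was -0.08 for *H2-Ob* (95% confidence interval -0.61 to 0.45, adjusted p = 0.933 from edgeR) and 0.33 for *H2-Oa* (-0.70 to 1.36, adjusted p = 0.822 from edgeR), the widest interval of the set. *H2-Oa* shared 11.8% of its 75-base stretches with the antisense gene *BC051537*, which was listed at 0 counts.

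**Figure D2:**
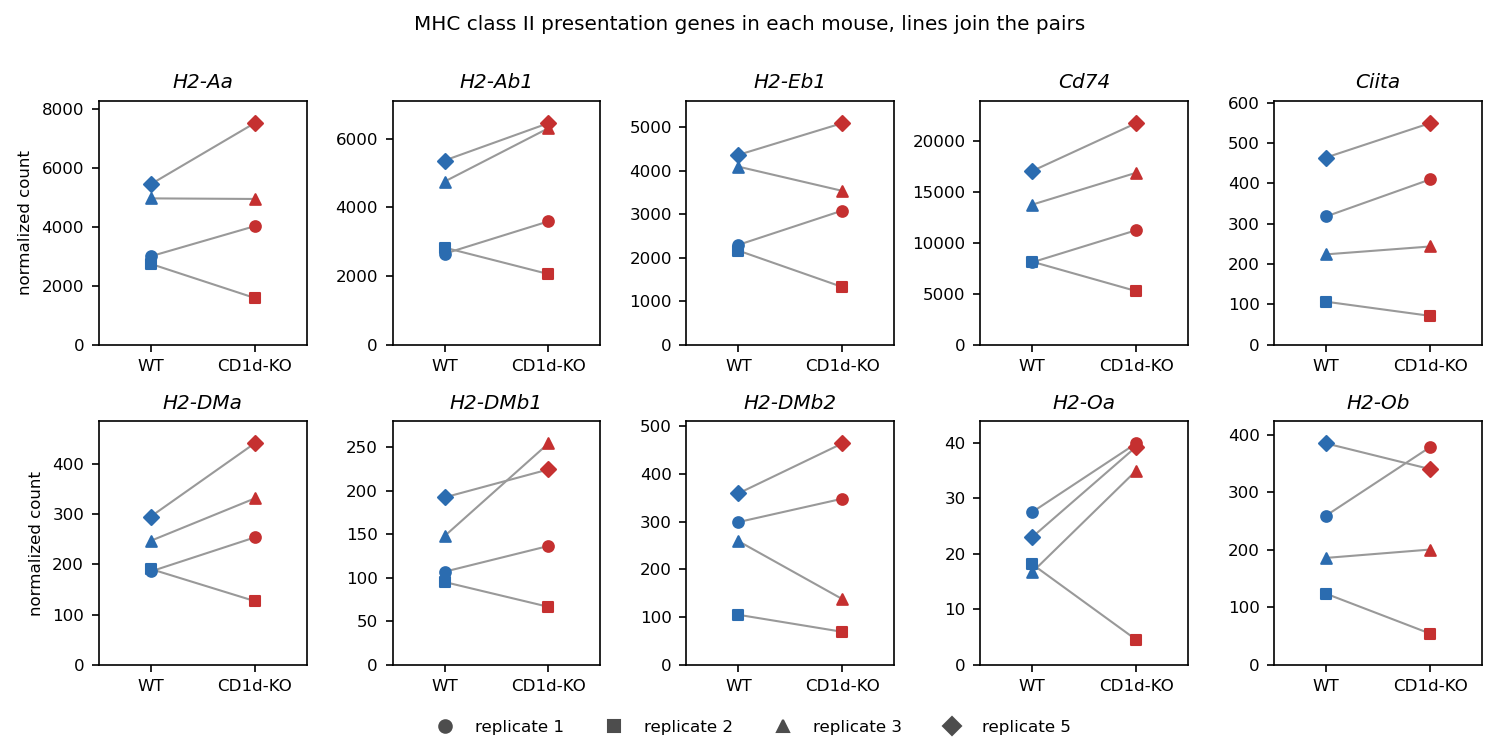
Normalized counts of each class II presentation gene, with 1 panel per gene, WT in blue, CD1d-KO in red and a line joining the mice of a pair (symbols mark replicates 1, 2, 3 and 5). In every panel the genotypes overlap and the line of replicate 2 falls, from 2748 to 1590.0 for *H2-Aa*, while that of replicate 1 rises.

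Over the 10 genes, 0 passed the thresholds for a call (adjusted p under 0.01 with a more than 1.5-fold difference, edgeR), beside 5 of the 13040 genes tested (0.0383%). An adjusted p under 0.05 was reached by 0 of 10, beside 0.406% of all genes. At an unadjusted p under 0.05 there were 0 of 10, beside 12.4% of all genes, and DESeq2 called 0 of the 9 members to which it gave an adjusted p (lowest 0.919, *H2-Oa* without one), beside 1.02% of the genes it adjusted. The median log2 fold change was 0.12, beside 0.0047 over all genes tested, with 7 values above 0 and 3 below. The genotypes overlapped for 10 of 10 genes, and did not overlap for 1.95% of all genes. Over the 4 pairs, the confidence intervals of *H2-Aa*, *H2-Ab1*, *H2-Eb1*, *Cd74* and *Ciita* stayed inside a 1.5-fold difference in either direction (0.748-fold to 1.399-fold for *H2-Aa*). Those of the other 5 genes did not (0.614-fold to 2.56-fold for *H2-Oa*). These intervals include pair 1, and none are given here without it. Without pair 1 *H2-Aa* had a log2 fold change of -0.10 (standard error 0.21) and *H2-Eb1* -0.23 (standard error 0.16). The bound is therefore stated for the 4 pairs only.

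The pairs disagreed. In pair 1, whose CD1d-KO library goes against its label, 10 of 10 genes were higher in CD1d-KO, with log2 ratios from 0.22 to 0.54 and a median of 0.43. In pair 2, 0 of 10 were higher, with log2 ratios from -1.997 to -0.46 and a median of -0.61. Pair 3 had 7 of 10 higher (median 0.21) with the widest split, from -0.91 for *H2-DMb2* to 1.07 for *H2-Oa*, and pair 5 had 9 of 10 higher (median 0.31), with *H2-Ob* the exception at -0.18. As a result 0 of 10 genes moved the same way in all 4 pairs, beside 20.7% of all genes tested.

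Which pairs were counted changed the size of the median and the sign of some genes, while the median stayed above 0 whichever pair was left out. Without pair 1 the median log2 fold change of the 10 genes was 0.0032, 5 values were above 0, and the lowest adjusted p was 0.706 (edgeR). Single values without pair 1 ran from -0.34 for *H2-Ob* and -0.32 for *H2-DMb2* to 0.22 for *H2-DMb1* and 0.25 for *H2-Oa*, with -0.10 for *H2-Aa*, 0.08 for *H2-Ab1*, -0.23 for *H2-Eb1*, 0.0097 for *Cd74*, -0.0034 for *Ciita* and 0.18 for *H2-DMa*. Without pair 3 the median was 0.07, and without pair 5 it was 0.05. Without pair 2, with pair 1 kept, the median was 0.34 and 9 values were above 0. In that fit 7 of 10 genes had an unadjusted p under 0.05 (edgeR), beside 15.1% of all genes. The largest of these relative to its error was *H2-DMa* (0.49 on the log2 scale with a standard error of 0.10, adjusted p = 0.0647 from edgeR), followed by *H2-Ab1* (0.37, standard error 0.09, adjusted p = 0.0929 from edgeR) and *Cd74* (0.38, standard error 0.09, adjusted p = 0.103 from edgeR). Without pair 2, 0 of 10 were called, beside 0.167% of all genes, and 0 had an adjusted p under 0.05, beside 1.2%.

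**Figure D3:**
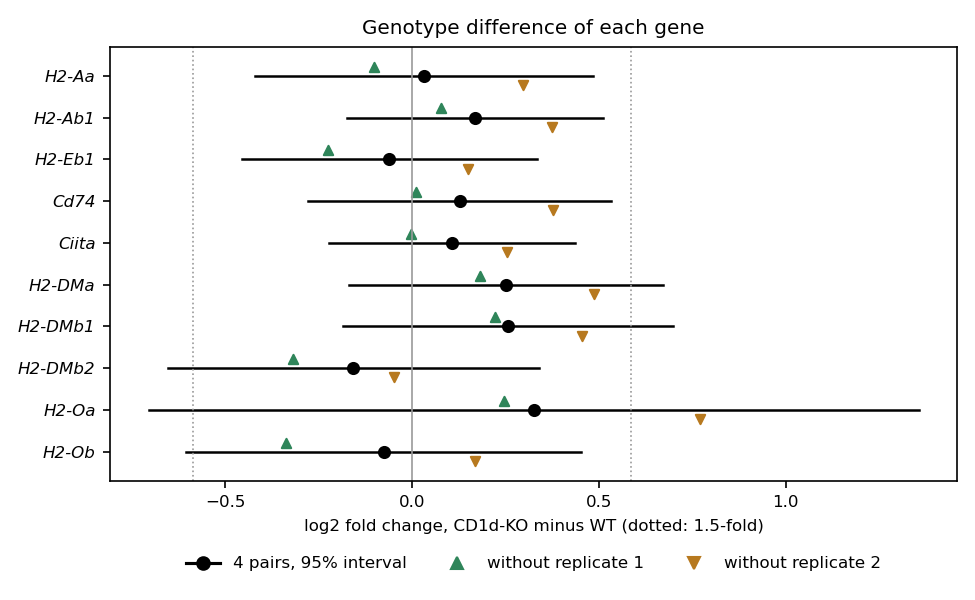
Log2 fold change of each class II presentation gene, CD1d-KO minus WT, with its 95% confidence interval from edgeR over 4 pairs (black), and the value without replicate 1 (green) or without replicate 2 (ochre). Each black interval crosses 0. The green triangles lie to the left of the black points for all 10 genes and the ochre ones to the right. Dotted lines mark a 1.5-fold difference.

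The 8 mice were spread widely. The highest of the 8 mice exceeded the lowest by a median of 4.43-fold over the 10 genes, from 3.14-fold for *H2-Ab1* to 8.78-fold for *H2-Oa*, beside a median of 1.54-fold over the 9926 tested genes with a mean of at least 50 normalized counts. CD1d-KO replicate 2 was the lowest mouse for 10 of 10 genes. CD1d-KO replicate 5 was the highest for 7 genes, and WT replicate 5, CD1d-KO replicate 1 and CD1d-KO replicate 3 were each the highest for 1. Second lowest was WT replicate 2 for 6 genes, WT replicate 1 for 3 and WT replicate 3 for 1.

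Not all members varied alike, and the grouping below was made after their values were seen. Divided by *Cd74* in the same mouse, *H2-Aa*, *H2-Ab1*, *H2-Eb1*, *H2-DMa* and *H2-DMb1* varied by 1.26-fold to 1.46-fold between the highest and the lowest mouse. *Ciita*, *H2-Ob*, *H2-Oa* and *H2-DMb2* varied by 3.005-fold to 4.53-fold on the same measure. The clearest contrast was between pairs 1 and 3: *Ciita* was higher in both mice of pair 1 (318 and 410 normalized counts) than in both of pair 3 (224 and 243), whereas *H2-Ab1* was lower in both of pair 1 (2651 and 3594) than in both of pair 3 (4754 and 6311). Per length, the summed chains over *Ciita* ran from 121 in WT replicate 1 to 346 in WT replicate 2.

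B cells hold class II all the time and express *Ciita* and H2-O strongly, so the B cell markers are given beside these values. Their summed normalized counts were 8406, 3451, 7283 and 9630.0 in WT and 10602, 2195, 6518 and 15706 in CD1d-KO replicates 1, 2, 3 and 5, a 7.16-fold range, and 0 of 14 were called between the genotypes. CD1d-KO replicate 2 and WT replicate 2 were the lowest libraries and CD1d-KO replicate 5 the highest, which were also the ends of the range of *Ciita*. The log2 ratios of the sum in pairs 1, 2, 3 and 5 were 0.33, -0.65, -0.16 and 0.71. More than any other marker, *Ighm* makes up this sum: its mean over the 8 mice was 4172, beside 619.5 for *Cd79a*, the next highest. Single B cell markers spread from 5.04-fold for *Cr2* to 11.8-fold for *Cd22*, with *Ighm* at 6.23-fold. The divisions below therefore rest mostly on *Ighm*, and a sum without it was not tested. Divided by the summed B cell markers, *Ciita* varied by only 1.57-fold across the 8 mice, *H2-DMb2* by 1.76-fold and *H2-Ob* by 1.85-fold, where undivided they had varied by 7.69-fold, 6.69-fold and 7.06-fold. The same division left *H2-Aa* at 2.23-fold, *H2-Eb1* at 2.30-fold, *H2-Oa* at 2.59-fold, *H2-DMa* at 2.62-fold, *Cd74* at 2.69-fold, *H2-DMb1* at 3.07-fold and *H2-Ab1* at 3.07-fold. The part of B cell RNA in these levels was not tested. With the B cell level of each library added to the edgeR model, a choice made after the data were seen, the median log2 fold change was 0.05, 6 of 10 values were above 0, and 0 of 10 were called (lowest adjusted p 0.450).

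**Figure D4:**
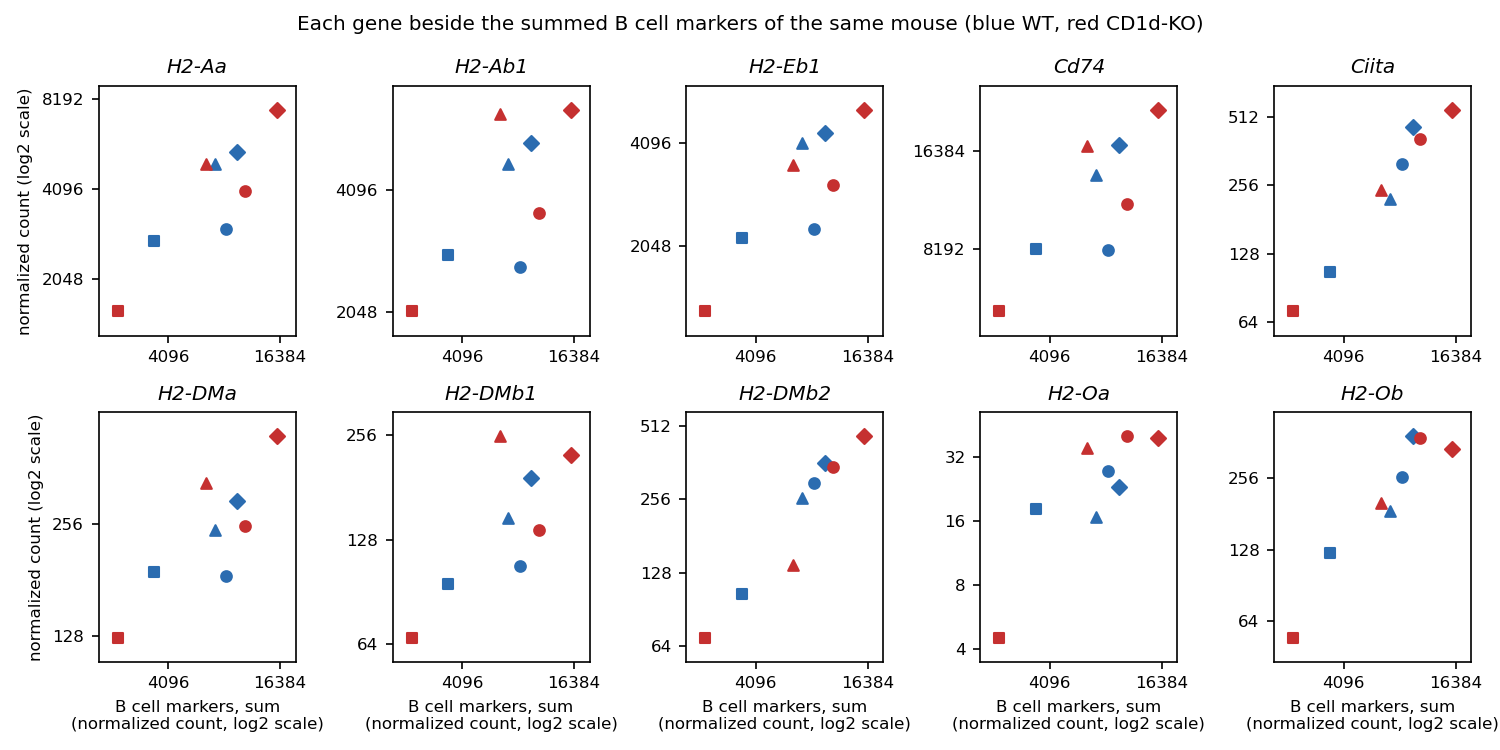
Normalized counts of each class II presentation gene (vertical axis) against the summed normalized counts of 14 B cell markers in the same mouse (horizontal axis), both on log2 scales, WT in blue and CD1d-KO in red, symbols for replicates 1, 2, 3 and 5 as in the plot of counts by mouse. *Ciita*, *H2-DMb2* and *H2-Ob* climb in a narrow band, while for *H2-Ab1* and *Cd74* the triangles of replicate 3 lie above the circles of replicate 1 although their B cell levels are lower. The horizontal axis rests mostly on *Ighm*.

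The summed markers of other cells that hold class II spread by 2.15-fold for dendritic cells and 2.41-fold for small pMacs, beside 7.16-fold for B cells. These sums rest on a few abundant genes (*Zbtb46* and *Itgax*, *Retnla* and *Irf4*), and single markers spread as widely as those of B cells, *Ccr7* by 9.13-fold, *Dpp4* by 7.33-fold, *Fcrls* by 8.68-fold and *Ccr2* by 6.93-fold. Dendritic cell markers summed to between 738 and 1304 normalized counts in WT and between 608 and 1186 in CD1d-KO, with 6 of 10 markers above the filter. Levels differed between the dendritic cell markers. *Flt3* had at most 10.9 normalized counts and *Clec9a* at most 20.2 in any library. *Zbtb46* had between 249.3 and 395.4, *Itgax* between 157.6 and 544.5 and *Cd209a* between 61.7 and 269.0. Markers of small pMacs, the monocyte-derived subset rich in class II, summed to between 2604 and 5355 in WT and between 2236 and 5387 in CD1d-KO, 8 of 10 above the filter. The log2 ratios of the small pMac sum in pairs 1, 2, 3 and 5 were 0.61, -0.90, -0.47 and 0.22. The summed markers of large pMacs differed by 1.49-fold over the 8 libraries. That sum rests mostly on *Fn1* and *Prg4*, and single markers spread from 1.16-fold for *Itgam* to 2.52-fold for *Selp*. None of these lists held a called gene, and their part in the class II levels was not tested.

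The genes whose pattern over the 8 libraries was most like that of the class II chains and *Cd74* were ranked by Pearson's r with the mean scaled log2 level of *H2-Aa*, *H2-Ab1*, *H2-Eb1* and *Cd74*, as a description among 9917 genes that share libraries and depth (median r -0.039). The 10 highest were *Cd48* (0.981), *Plscr1* (0.975), *Nup210* (0.97), *Pira2* (0.959), *Ly6a* (0.955), *4930523C07Rik* (0.948), *Tlr9* (0.947), *Gpr137b* (0.946), *Plac8* (0.946) and *Papss2* (0.937). *Cd48* encodes a surface ligand of 2B4, and *Tlr9* the endosomal receptor of unmethylated CpG DNA. None of them was called, with log2 fold changes from -0.02 for *Cd48* to 0.49 for *Plac8* (adjusted p = 0.444 from edgeR). Without pair 1 they ran from -0.09 for *Pira2* to 0.46 for *Tlr9* (lowest adjusted p 0.695 from edgeR). Members that did not define the pattern had r of 0.97 (*H2-DMa*), 0.954 (*H2-DMb1*), 0.798 (*Ciita*), 0.759 (*H2-Ob*), 0.725 (*H2-Oa*) and 0.714 (*H2-DMb2*), and the 14 B cell markers between 0.325 and 0.848.

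Beside the members, 33 further genes of the pathway were listed by role and 32 were tested. Of these 0 were called and 0 had an adjusted p under 0.05 in the quasi-likelihood test of edgeR, and DESeq2 called 0. At an unadjusted p under 0.05, 9 were higher and 2 lower in CD1d-KO, beside 12.4% of all genes in either direction, and the median log2 fold change was 0.079. Without pair 1, 4 were higher and 1 lower at that level, beside 9.23% of all genes, with a median of 0.03 and a lowest adjusted p of 0.186 (edgeR). Of the 32, 11 moved the same way in 4 of 4 pairs, beside 20.7% of all genes.

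The genes of the endosomal machinery had small differences. The 8 genes for proteases and the reductase *Ifi30*, among them cathepsin S (*Ctss*), which makes the last cut in the invariant chain in most antigen-presenting cells, had log2 fold changes between -0.07 (*Ctsl*) and 0.15 (*Sppl2a*), and their lowest adjusted p was 0.579 (edgeR). Without pair 1 they ran from -0.11 (*Ifi30*) to 0.11 (*Sppl2a*). *Ctss* had 14340 ± 2697 normalized counts (SD, n = 4 mice) in WT, 15477 ± 2344 (SD, n = 4) in CD1d-KO, and 13162 in CD1d-KO replicate 2, where the class II chains were at their lowest.

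Regulators of *Ciita* had the lowest adjusted p-values of the list, and the tools differed on them. *Jak2*, a kinase of the interferon-gamma receptor that leads to *Ciita*, had 1394, 2117, 3434 and 1675 normalized counts in WT and 1893, 2634, 4310.3 and 2645 in CD1d-KO replicates 1, 2, 3 and 5. It was higher in CD1d-KO in 4 of 4 pairs, pair 2 included (log2 difference 0.44 with a standard error of 0.08, adjusted p = 0.0827 from edgeR). Its adjusted p was 0.00119 from DESeq2, with a fold change short of 1.5, 0.0403 with the B cell level in the edgeR model and 0.260 without pair 1 (log2 difference 0.43, edgeR). *Irf8*, a transcription factor of macrophages and dendritic cells, had 2213, 1524, 1690.3 and 1721 in WT and 1809, 1152, 1035 and 1363 in CD1d-KO, lower in 4 of 4 pairs (log2 difference -0.43 with a standard error of 0.08, adjusted p = 0.101 from edgeR). Its adjusted p was 0.00427 from DESeq2, again short of a 1.5-fold difference, 0.0588 with the B cell level in the model and 0.186 without pair 1 (log2 difference -0.48, edgeR).

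Of the 7 promoter factors, the 3 subunits of RFX had values above 0 and the other 4 below, and none passed the test in edgeR. *Rfx5*, a subunit of RFX, had a log2 fold change of 0.30 (adjusted p = 0.340 from edgeR). *Nfya*, a subunit of NF-Y, which binds the Y box, had -0.25 and was lower in CD1d-KO in 4 of 4 pairs (adjusted p = 0.268 from edgeR). *March1*, whose product marks class II for removal from the surface, and *Cd83*, which opposes it, had log2 fold changes of 0.48 and 0.51 (adjusted p = 0.368 and 0.167 from edgeR). *March1* was lower in CD1d-KO in pair 2 (log2 ratio -0.30), and without pair 1 the values were 0.28 and 0.40. The costimulators *Cd40* and *Cd80* stood at 0.58 and 0.37 (adjusted p = 0.172 and 0.366 from edgeR), each higher in CD1d-KO in 4 of 4 pairs, and *Cd86* at 0.01 (adjusted p = 0.988 from edgeR). Without pair 1 these were 0.63, 0.25 and 0.01, *Rfx5* was at 0.22 and *Nfya* at -0.19, with adjusted p from 0.356 to 0.984 (edgeR). DESeq2 gave *Cd83* and *Cd40* adjusted p of 0.0416 and 0.0418, and the edgeR model with the B cell level 0.0454 and 0.0499. The second I-E beta-like gene of the locus, *H2-Eb2*, had 169, 55.4, 100.1 and 176 normalized counts in WT and 159, 28.4, 89.7 and 223 in CD1d-KO, and ranked its mice at both ends as *Ciita* did.

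**Figure D5:**
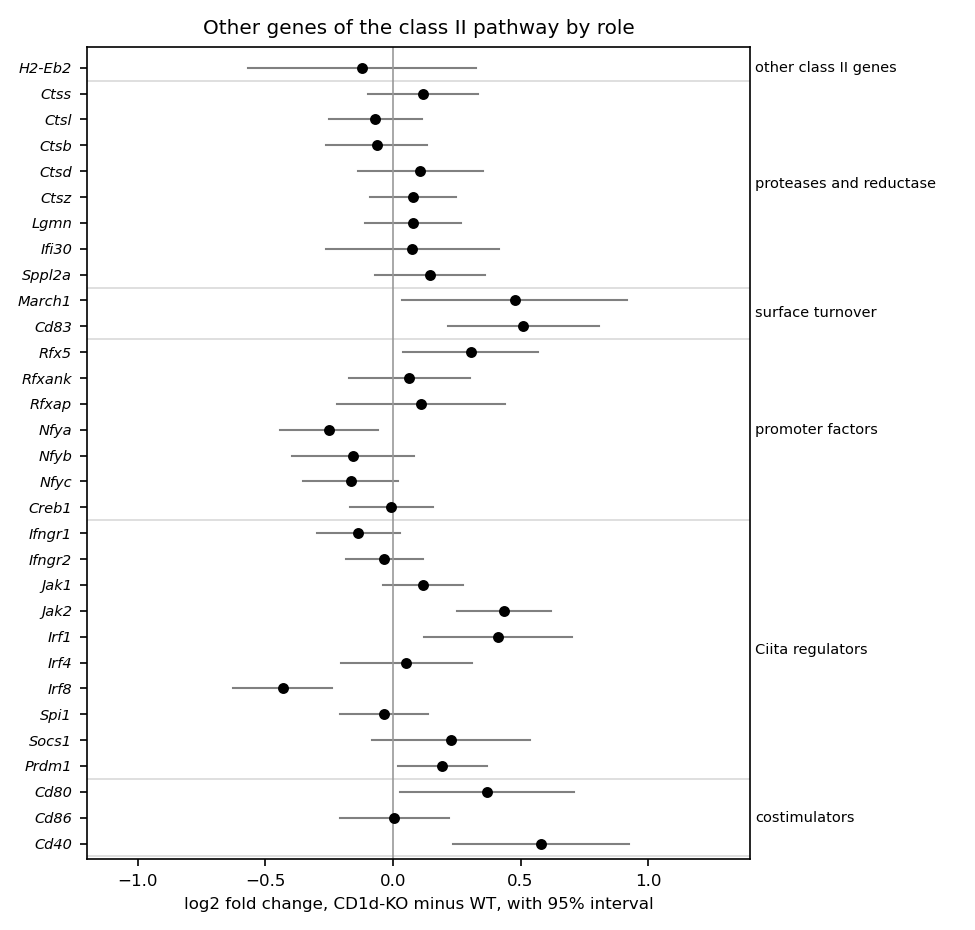
Log2 fold change, CD1d-KO minus WT, with its 95% confidence interval from edgeR for genes of the pathway outside the set of 10, grouped by role. The proteases lie close to 0, *Jak2* is at 0.44 and *Irf8* at -0.43.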

How the data were processed

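Poly(A) RNA of pMacs, 4 libraries per genotype, was sequenced as single-end 75-base reads. The authors trimmed them with Cutadapt, aligned them to GRCm38 with STAR (2.5.2a) and estimated expected counts and TPM per Ensembl gene with RSEM (1.3.0). The deposited expected counts are not normalized, and reads matching several genes are divided among them. The deposited TPM were used for levels between genes only, and deposited FPKM were not used. Symbols came from GENCODE M21, which held 99.26% of the gene IDs.

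Expected counts were rounded, TMM-normalized and filtered with filterByExpr in edgeR (4.0.16, R 4.3.3). The quasi-likelihood model held replicate number and genotype, as in the study, and p-values were adjusted by Benjamini-Hochberg over all genes tested. Standard errors were derived from the F statistic. Calls used the thresholds of the study (adjusted p under 0.01, fold change above 1.5). DESeq2 (1.42.0) and limma (3.58.1) served as alternatives. The edgeR step was checked on simulated data. Libraries were paired by replicate number, and no label gives a shared litter or day. As a check of the pairing, same-numbered libraries deviated together (r = 0.487, 0.387, 0.505 and 0.207 for replicates 1, 2, 3 and 5). For replicate 5 the highest r with another number was 0.22, above that of its own pair. Shared sequence was counted as identical 75-base stretches of GENCODE transcripts. Genes named are the members, the pathway and marker lists and the 10 genes most like the class II pattern. A pathway gene is named for its role or an adjusted p under 0.05. A gene of the pathway list that enters its counts is not reported here by name. The members and lists were chosen with earlier results of these data known. Intervals cover only the spread between these mice.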

Additional observations from a re-analysis of the deposited data

Results flagged for a closer look

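Of 32 groups of 4 libraries checked with Dixon's test, 2 held a mouse far from the others. Chance gives about 1 in 20, so the number flagged is near that of chance. Genes that vary together do not give independent groups. *H2-Oa* had 4.54 normalized counts in CD1d-KO replicate 2, beside 34.9 to 39.8 in the other CD1d-KO mice. *Cd1d1* had 60.1 normalized counts in the library labelled CD1d-KO replicate 1, beside 0 to 1.13 in the other CD1d-KO libraries.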

How the results depend on the processing

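None of the 10 genes was called under any of 22 alternatives that tested it (lowest adjusted p 0.0647, edgeR without replicate 2). *H2-Oa* had no adjusted p from DESeq2 and did not pass the filter of 10 counts in every library. Of 219 values of single genes, 193 kept their direction and 26 did not. The genes called among all tested, 5 here, were 106 with DESeq2, 236 among genes with any count, 3 with limma-trend on log2(TPM + 1) and 3 on log2(TPM + 0.1), 53 at an adjusted p under 0.05 with no fold threshold, 16 with the B cell level as a covariate (added after the data were seen), 3 to 22 without 1 pair or without 1 library and no replicate block. Without the replicate block it was 3, and *H2-Eb1* (0.014) and *H2-Ob* (0.034) changed sign. With the B cell covariate *H2-Aa* did (-0.0285). Leaving out 1 pair or 1 library, the median log2 fold change ran from -0.12 to 0.49, and that of *H2-Aa* from -0.20 to 0.44, of *H2-Eb1* from -0.29 to 0.27, of *Cd74* from -0.0805 to 0.50, of *Ciita* from -0.20 to 0.56, of *H2-DMb2* from -0.46 to 0.30 and of *H2-Ob* from -0.34 to 0.36. The causes were not tested. Without CD1d-KO replicate 1, 6 of the 10 genes most like the class II pattern stayed among the 10. *H2-Oa*, the gene with the fewest counts, had the widest interval.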
